A study of Mus musculus with 54 samples.

Results

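Dapagliflozin, a drug that blocks the glucose transporter SGLT2, was compared with vehicle in early proximal tubules of diabetic Akita mice with intact Sglt1. The comparison used 5 samples with dapagliflozin and 6 with vehicle, of the 48 samples in the table. They were chosen by their group labels alone, WT Akita dapa and WT Akita veh, and all 12742 genes that reached 1 TPM in at least 5 of the 48 columns were tested. TPM, a length-corrected measure of transcript abundance, scales every library to the same sum, so it keeps no sequencing depth. All mice were DBA males, 14 weeks old. Both groups were Ins2 Akita/+, a mutation of an insulin gene that causes insulin-deficient diabetes, and Sglt1 WT. Treatment lasted 2 weeks and dapagliflozin was given at 10 mg/kg diet. Each sample pooled 70 to 80 tubules that stained for SGLT2, cut from kidney sections by laser capture. A further 3 comparisons set this response beside Akita mice without Sglt1, non-diabetic wild-type mice and Akita mice given semaglutide.

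SGLT2, encoded by Slc5a2, carries glucose together with sodium across the brush border of the first proximal tubule segments. Its inhibition leaves glucose in the tubular fluid, from where it passes to later segments and into the urine. Proximal tubule cells live mainly on fatty acids and other organic acids, make glucose and ammonia, and secrete drugs and waste anions. In mice many of their transporters and detoxifying enzymes differ between the sexes and depend on androgens.

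No gene passed the threshold of 0.05 for a call on its adjusted p (limma, Benjamini-Hochberg over all genes), so percent called was 0. The smallest adjusted p was 0.132. At an unadjusted p under 0.05 stood 1289 genes, 10.1% of those tested, of which 1234 were higher with dapagliflozin (9.68%) and 55 lower (0.432%). Most of that imbalance was a shift of all genes: 77.6% of tested genes had a higher mean with dapagliflozin, and the median log2 difference was 0.19. After median-of-ratios scaling, which divides each library by the typical ratio of its genes to their mean over libraries, 49.6% were higher and the median was −0.0019. On that scale 586 genes were higher (4.6%) and 489 lower (3.84%) at an unadjusted p under 0.05, again with 0 called and a smallest adjusted p of 0.118. Differences below are therefore given on the log2(TPM + 1) scale, which understates those of low genes, and are read against 0.19 or beside the scaled value. "Higher" and "lower" below refer to means and not to calls.

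The shift went with library measures. Nuclear protein-coding genes took 10.4 ± 1.30% of TPM with dapagliflozin (SD, n = 5) and 8.59 ± 2.02% with vehicle (n = 6; exact permutation p = 0.104, two-sided), and 10247 ± 597 against 9665 ± 812 genes were detected at 1 TPM (exact permutation p = 0.225). Vehicle samples 2 and 5 had fewer than 9000 genes. Measured from the vehicle mean, the median gene of a library lay between −0.07 and 0.34 with dapagliflozin and between −0.33 and 0.37 with vehicle, so the libraries of both groups overlapped. Early proximal markers summed to between 3367 and 5071 TPM with dapagliflozin and between 2562 and 4503 with vehicle, and all 10 of them had a mean of at least 1 TPM. Markers of other cells were present too. Distal convoluted and connecting tubule markers summed to 42.3 to 286 TPM with dapagliflozin and 34.6 to 180 with vehicle. In the same order, thick ascending limb markers summed to 32.3 to 103 and 22.3 to 124 TPM, and endothelial markers to 22.0 to 87.6 and 31.1 to 103. The 13 leukocyte markers summed to 10.96 to 23.6 and 5.31 to 24.0 TPM, although S100a8 and S100a9 were at 0 in all 11 libraries. The part that library quality had in the differences below was not tested further than by the alternatives given in the closing section.

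**Figure D1:**
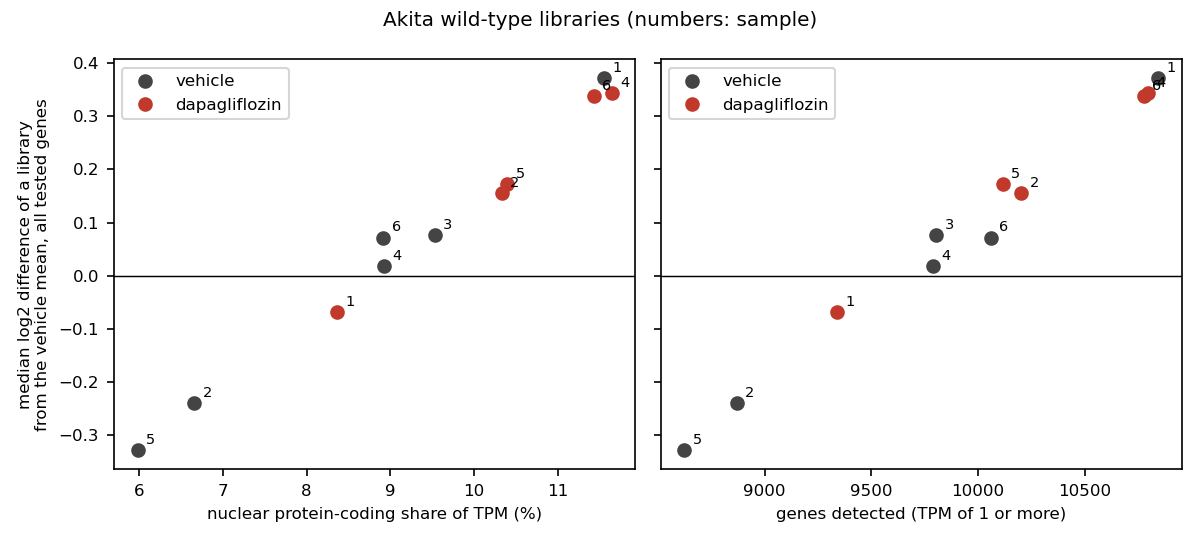
Each point is 1 of the 11 Akita wild-type libraries, numbered by sample. The vertical axis is the median log2 difference of its tested genes from the vehicle mean, and the horizontal axes are the nuclear protein-coding share of TPM (%) and the number of genes detected. Vehicle samples 2 and 5 lie lowest, and vehicle sample 1 lies highest beside dapagliflozin samples 4 and 6.

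The gene with the smallest p was Arpp19 (chromosome 9, 75037614 to 75060313, GRCm38), which encodes a phosphoprotein that inhibits the phosphatase PP2A. Its TPM was 17.002, 20.7, 21.1, 23.9 and 21.3 in dapagliflozin samples 1, 2, 4, 5 and 6, an order used for every gene below, while the lowest, median and highest of the 6 vehicle samples, also given in this order below, were 5.17, 10.4 and 13.8. The groups did not overlap. The log2 difference was 1.03 ± 0.21 (SE; adjusted p = 0.132), and 0.77 after median-of-ratios scaling.

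Several of the next genes by p handle fatty acids or foreign compounds. Cyp2e1 (chromosome 7, 140763739 to 140774987), a cytochrome P450 that oxidises small molecules, had 134, 208, 187, 215 and 192 TPM with dapagliflozin and 56.6, 68.5 and 140.4 with vehicle. Only the lowest treated sample lay below the highest vehicle sample, and the difference was 1.22 ± 0.27 (adjusted p = 0.187; 0.94 scaled). Ces2c, a carboxylesterase, had 18.6, 25.998, 27.4, 27.1 and 25.8 against 5.08, 9.68 and 17.2 TPM with no overlap, a difference of 1.28 ± 0.30 (adjusted p = 0.196). The fatty acid ω-hydroxylase Cyp4a12a (chromosome 4, 115299046 to 115332815) had 46.2, 58.8, 60.3, 72.8 and 66.7 against 15.2, 25.2 and 38.9 TPM, also without overlap, at 1.23 ± 0.30 (adjusted p = 0.2). Both kept separate groups after scaling, with differences of 1.02 and 0.95.

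Abcd3, a peroxisomal transporter of fatty acyl-CoA, had 21.1, 30.7, 34.5, 34.6 and 31.95 TPM with dapagliflozin and 10.7, 16.2 and 25.4 with vehicle, with 1 treated sample inside the vehicle range and a difference of 0.89 ± 0.20 (adjusted p = 0.187). Lipoprotein lipase, Lpl, which releases fatty acids from circulating triglyceride, varied more. Its TPM was 8.68, 26.5, 29.5, 15.8 and 21.99 against 3.57, 4.83 and 16.9, with overlapping groups and a difference of 1.39 ± 0.32 (adjusted p = 0.196). Keg1, a kidney member of the glycine N-acyltransferase family, had 135, 191, 391, 179 and 251 against 66.6, 87.6 and 222 TPM, with treated sample 4 far above the other treated samples and a vehicle sample within their range (1.11 ± 0.28, adjusted p = 0.22).

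Slc17a1 (chromosome 13, 23867750 to 23895730), a phosphate and urate transporter of the brush border, had 24.3, 25.7, 28.4, 29.99 and 33.5 TPM with dapagliflozin and 6.57, 15.03 and 21.4 with vehicle. These groups were separate, before and after scaling, with differences of 0.95 ± 0.24 (adjusted p = 0.22) and 0.69. Sec11a, a subunit of the signal peptidase that trims proteins entering the endoplasmic reticulum, had 24.4, 34.7, 43.9, 32.8 and 22.98 against 10.5, 14.4 and 20.4 TPM (1.003 ± 0.24, adjusted p = 0.196). Its groups were separate on deposited TPM and overlapped after scaling. Pkia, an inhibitor of protein kinase A, was low, at 3.06, 2.05, 2.598, 0.638 and 2.93 against 0.281, 0.5397 and 1.24 TPM, with 4 treated samples above all vehicle samples and sample 5 among them (0.93 ± 0.22, adjusted p = 0.196).

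**Figure D2:**
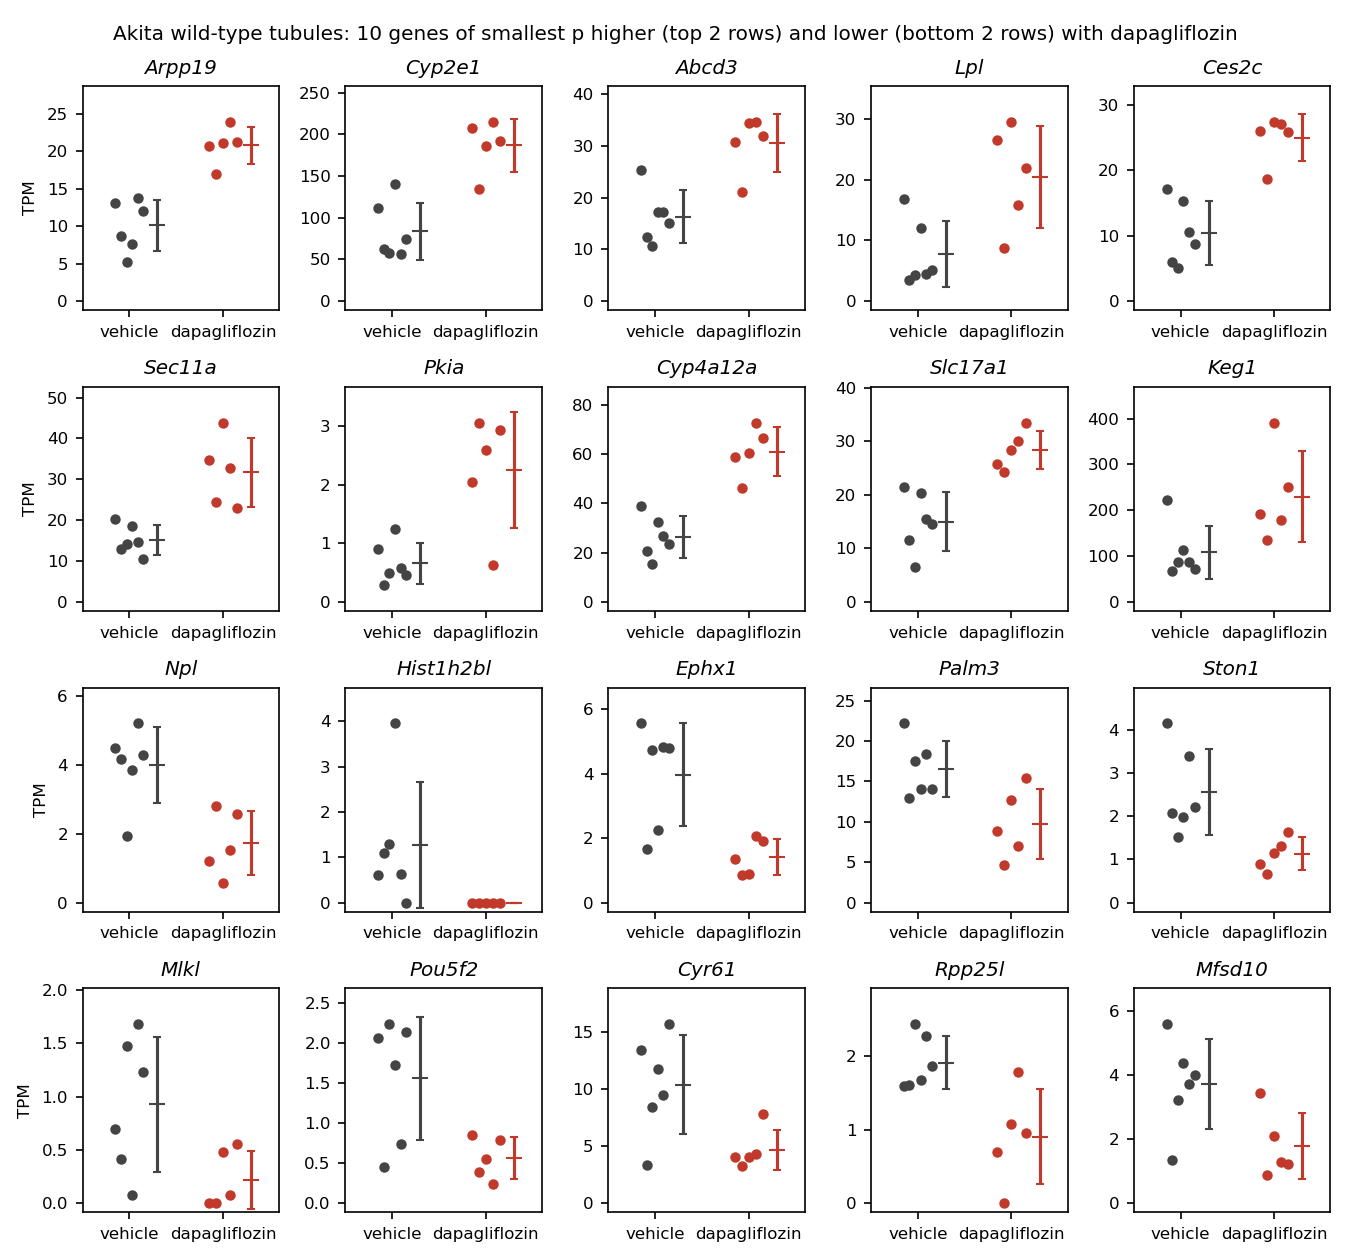
TPM of the 10 genes with the smallest p that were higher and the 10 that were lower with dapagliflozin, 1 panel per gene with its own linear axis. Points are the 6 vehicle and 5 dapagliflozin samples, and the bar beside them is the mean ± SD. Arpp19, Ces2c, Sec11a, Cyp4a12a and Slc17a1 show groups that do not overlap, and no gene in the lower rows does.

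Among all tested genes 125 were separate and higher with dapagliflozin (0.981%) and 5 were separate and lower (0.0392%), while after scaling these counts were 66 (0.518%) and 51 (0.4%). The 5 were Anxa3, Arid5a, Zfp697, Gm42047 and Gm8128, all but Anxa3 named here only because so few were found. Anxa3, an annexin that binds membrane phospholipids, had 0, 0.271, 0.603, 0.399996 and 0.462 TPM against 0.889, 1.23 and 1.49 (−0.72 ± 0.33, adjusted p = 0.462).

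**Figure D3:**
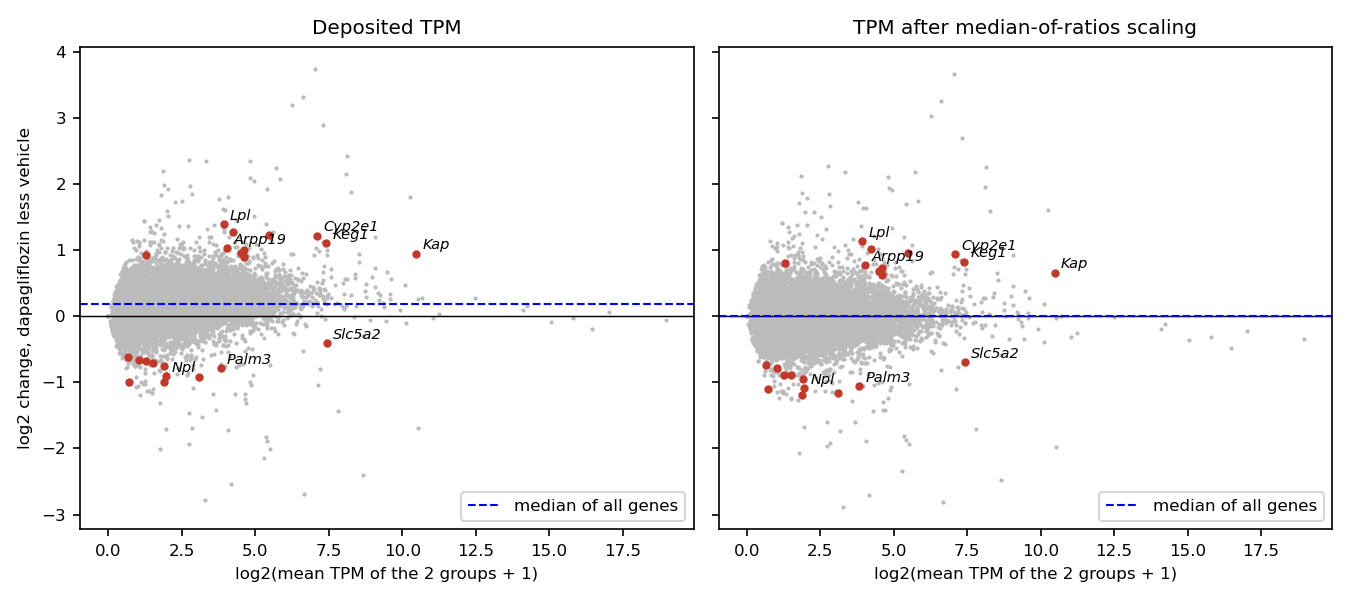
Log2 difference of every tested gene (dapagliflozin less vehicle) against its mean level, from deposited TPM (left) and after median-of-ratios scaling (right). Red points are the 20 genes of smallest p with Kap and Slc5a2, and the dashed line is the median of all genes, 0.19 on the left and −0.0019 on the right.

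The 10 lower genes of smallest p were at low levels, except Palm3 and Cyr61. Npl, the sialic acid aldolase, had 2.79, 1.21, 0.579, 1.53 and 2.56 TPM with dapagliflozin and 1.93, 4.22 and 5.199 with vehicle (−0.90 ± 0.27, adjusted p = 0.249; −1.09 scaled). Palm3 (chromosome 8, 84021471 to 84030295), a paralemmin-like membrane protein, had 4.63, 8.85, 12.7, 7.02 and 15.4 against 12.9, 15.8 and 22.2 TPM. Of its treated samples only sample 6 reached into the vehicle range, and after scaling the groups were separate, with a difference of −1.06 in place of −0.79 ± 0.27 (adjusted p = 0.319). Ephx1, the microsomal epoxide hydrolase, had 0.862, 1.34, 0.885, 2.06 and 1.91 against 1.65, 4.76 and 5.55 TPM (−0.997 ± 0.34, adjusted p = 0.319). The histone gene Hist1h2bl was listed at 0 in all 5 treated samples and in 1 vehicle sample, with up to 3.95 TPM in the others. Ston1, an endocytic adaptor, differed by −0.71, Mlkl, the executor of necroptosis, by −0.61, Pou5f2 by −0.66, Rpp25l by −0.68 and Mfsd10 by −0.76, with adjusted p between 0.326 and 0.384.

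Lists of genes with a common function were described by their counts and by the median log2 difference of their members less that of all tested genes. The counts of every list below are to be read against all tested genes. Of these, 77.6% were higher, 9.68% were higher at an unadjusted p under 0.05 and 0.981% were separate and higher. After scaling 49.6% were higher and 0.518% were separate and higher. Of 45 such lists, the one farthest from all genes held androgen-induced or male-biased kidney genes, 0.62 above the median of all genes. All 23 tested members were higher with dapagliflozin, against 77.6% of all genes, and 17 had an unadjusted p under 0.05, against 9.68% of all genes. Scaling left all 23 higher, with a median of 0.53. None was called. In the single treated samples the list's median, less that of all genes, was 0.41, 0.76, 0.58, 0.56 and 0.38, and in the vehicle samples it ran from −0.20 to 0.36, so these groups did not overlap. Members ranged from Prlr, the prolactin receptor, at 0.27 to Cyp4a12a at 1.23.

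The highest member by level was Kap, the kidney androgen-regulated protein, a secreted protein of unsettled function made in proximal tubules (chromosome 6, 133849851 to 133853762). Its TPM was 1311, 2607, 2203, 1800.1 and 1414 with dapagliflozin and 634, 991 and 1279 with vehicle. All treated samples stood above all vehicle samples, though the margin was narrow, and the difference was 0.95 ± 0.25 (adjusted p = 0.22). After scaling the groups overlapped, at 0.66. Odc1, ornithine decarboxylase, the entry step of polyamine synthesis, had 127, 256, 273, 241 and 145 against 55.6, 73.95 and 183 TPM with overlap (1.13 ± 0.38, adjusted p = 0.3). Slco1a1, an organic anion transporter, had 16.4, 39.8, 49.8, 34.2 and 26.6 against 7.58, 13.3 and 30.8 TPM (1.09 ± 0.36, adjusted p = 0.3). Treated samples 1 and 6 of Slco1a1 lay within the vehicle range. Slc7a13, an amino acid transporter of the late proximal tubule, had 18.3, 48.9, 50.1, 22.9 and 26.1 against 11.2, 13.2 and 25.4 TPM (0.95 ± 0.31, adjusted p = 0.3), again with treated samples inside the vehicle range. The glucuronosyltransferase Ugt2b38 (0.93), the organic anion transporter Slc22a30 (0.81) and the acyl-CoA synthetase Acsm2 (0.74) were also higher at an unadjusted p under 0.05. Cyp4a12a, Ugt2b38, Acsm2 and Ces2c have near-identical relatives in the mouse genome, and how reads were split among them is uncertain.

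The upstream sequences of Kap and Cyp2e1 are shown because Kap was the list's highest member and Cyp2e1 its member of smallest p. They are the 250 bases before the annotated start in RefSeq (GRCm38.p6), 5′ to 3′ on the gene's strand, for Kap chr6:133853668-133853917 on the minus strand and for Cyp2e1 chr7:140763569-140763818 on the plus strand. Capitals mark TATAAA, the letters of a TATA box.
Kap: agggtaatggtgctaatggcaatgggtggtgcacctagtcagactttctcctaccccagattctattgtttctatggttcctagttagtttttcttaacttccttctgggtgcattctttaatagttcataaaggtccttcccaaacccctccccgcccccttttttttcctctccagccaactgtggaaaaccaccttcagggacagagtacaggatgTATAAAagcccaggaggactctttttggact
Cyp2e1: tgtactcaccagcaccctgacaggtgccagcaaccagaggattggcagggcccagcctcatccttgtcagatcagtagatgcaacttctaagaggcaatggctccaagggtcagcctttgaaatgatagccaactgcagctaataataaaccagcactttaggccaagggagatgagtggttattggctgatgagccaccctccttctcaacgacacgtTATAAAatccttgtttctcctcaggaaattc
In both, TATAAA begins 31 bases before the RefSeq start. The gene positions given above are from GENCODE, whose outermost starts lie 95 bases upstream of the RefSeq start for Kap and 80 bases for Cyp2e1, so the end of each window, with TATAAA, lies inside the gene as GENCODE draws it. TATAAA or its reverse complement TTTATA occurs in 12.4% of 32851 such windows, and AGAACA or its reverse complement TGTTCT, the letters of a partial site of the androgen and glucocorticoid receptors, in 16.1%. Neither of the printed windows holds AGAACA or TGTTCT, which says only that these letters are not in these 250 bases.

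The diabetic vehicle samples that served as the reference here were also compared with non-diabetic mice, so levels are given side by side without a test across those comparisons. Kap had 1852 ± 369.8 TPM in non-diabetic wild-type vehicle tubules (SD, n = 5), 973 ± 291 in Akita vehicle (n = 6) and 1867 ± 543 in Akita dapagliflozin tubules (n = 5). Cyp2e1 had 177 ± 22.4, 83.8 ± 34.4 and 187 ± 31.7 TPM in the same order, Cyp4a12a had 59.2 ± 17.9, 26.3 ± 8.51 and 60.96 ± 9.95, and Odc1 had 205 ± 76.4, 102 ± 58.5 and 208 ± 67.7. In each of these 4 genes the mean with dapagliflozin was within 1 SD of the non-diabetic mean, as it was in Slco1a1, Slc7a13 and Ace. It was so in Slc5a2 too, but there the Akita vehicle mean was already within 1 SD. That vehicle mean lay above the non-diabetic mean and the dapagliflozin mean below it. Pck1 went past the non-diabetic mean, at 366 ± 41.6, 274 ± 94.1 and 469.7 ± 119 TPM in the same order. Kap, Cyp2e1, Cyp4a12a, Odc1, Slco1a1, Slc7a13 and Ace were named for their rise against these same vehicle samples, so a low vehicle mean is partly built in. These TPM are not scaled. Between Akita and non-diabetic vehicle samples 74.3% of all genes were lower, with a median log2 difference of −0.15.

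**Figure D4:**
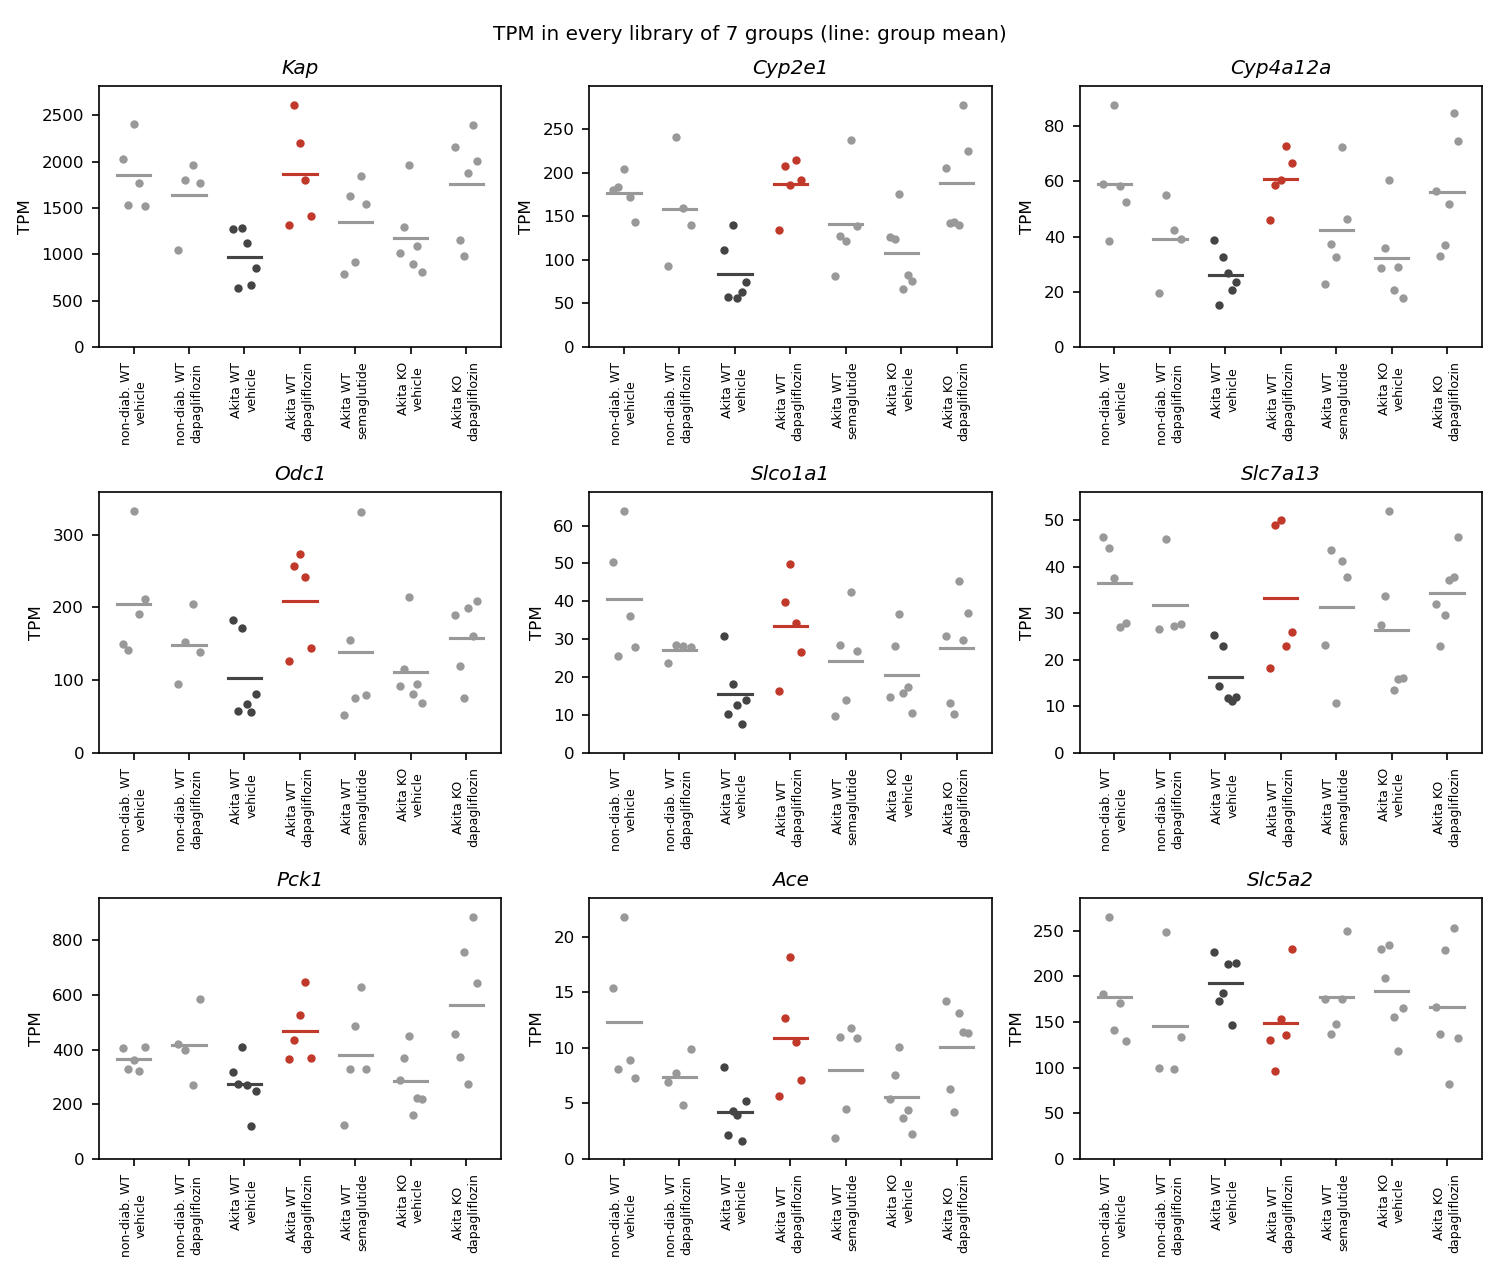
TPM of 9 genes in every library of 7 groups, with a line at the group mean and a linear axis from 0. Red marks Akita wild type with dapagliflozin and dark grey its vehicle group. The lowest group mean of Kap, Cyp2e1, Cyp4a12a, Odc1, Slco1a1, Slc7a13, Pck1 and Ace is that of Akita wild-type vehicle, and Slc5a2 has its highest mean there.

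Late proximal tubule (S3) markers were higher alongside the male-biased genes. All 10 tested S3 markers were higher with dapagliflozin, 5 at an unadjusted p under 0.05, and their median lay 0.52 above that of all genes (8 of 10 higher after scaling). Their summed level was 620 to 1112 TPM with dapagliflozin and 284 to 837 with vehicle. The 2 lists share Slc7a13, Slco1a1 and Slc22a30. In the treated samples the S3 median, less that of all genes, was 0.27, 1.22, 0.55, 0.56 and 0.16. In vehicle samples it ran from −0.18 to 0.41, so the groups overlapped, with treated samples 1 and 6 inside the vehicle range. Without treated sample 2, the highest, the difference was 0.39. Among early (S1 and S2) markers 9 of 10 were higher, with a median 0.083 above that of all genes, and 4 of 10 after scaling, at −0.0079. In pooled tubules, more cells of a segment and more RNA per cell cannot be told apart, and the part of S3 tubules in the male-biased list was not tested. Acy3, an aminoacylase of S3 cells, had 372, 616, 473, 485 and 431 TPM against 151, 247 and 390.0, with treated sample 1 inside the vehicle range (0.94 ± 0.25, adjusted p = 0.22).

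As a list glucose carriers did not stand apart, but Slc5a2 was lower where the median of all genes was 0.19 higher. Slc5a2, by whose product the tubules were chosen and which encodes the drug's target (chromosome 7, 128265657 to 128272430), had 131, 96.4, 153, 136 and 229.8 TPM with dapagliflozin and 146, 198 and 226 with vehicle. Of the treated samples 1, 2 and 5 lay below all vehicle samples, 4 lay low within the vehicle range, and 6 was above all of them. The difference was −0.41 ± 0.26 (adjusted p = 0.604), and −0.69 after scaling. Slc5a1, which encodes SGLT1, had 1.11, 2.28, 2.59, 2.25 and 1.33 against 0.814, 1.32 and 3.55 TPM, and Slc2a2, the basolateral glucose carrier GLUT2, 15.9, 11.1, 18.4, 17.04 and 16.2 against 11.4, 15.0004 and 19.6. In both genes the groups overlapped, with differences of 0.14 ± 0.21 (adjusted p = 0.842) and 0.05 ± 0.25 (adjusted p = 0.957) that turned to −0.03 and −0.22 after scaling. The list of glucose and SGLT2-linked transport, 14 genes, lay 0.05 above all genes, with 11 higher and 6 higher after scaling, where its median turned to −0.019 relative to all genes. Within it, Slc5a8, a sodium-coupled lactate carrier (10.2 against 5.82 TPM; 0.78), Smim24 (0.64) and Slc2a1, encoding GLUT1 (0.49), had unadjusted p under 0.05. The glucose-sensing targets of ChREBP and MondoA were higher in 15 of 15, with a median 0.15 above all genes, 0.044 without the libraries below 9000 genes, and 11 higher after scaling. Txnip, their usual indicator, had 5.96, 7.18, 10.3, 9.304 and 10.5 against 2.22, 6.002 and 15.2 TPM (0.34 ± 0.34, adjusted p = 0.737).

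Organic ion transporters and brush border peptidases were among the higher lists. Of 24 genes for organic anion, organic cation and urate transport 20 were higher, where 77.6% of all genes were. At an unadjusted p under 0.05 stood 9 of them, against 9.68% of all genes, and the median was 0.26 above all genes. In treated samples that median was 0.25, 0.49, 0.31, 0.25 and 0.25, all above the vehicle samples, whose highest was 0.22. The highest member of this list, at 1.09, was Slco1a1, which is also in the male-biased and S3 lists. The part of such shared members was not tested. Slc17a3, a urate and anion exporter next to Slc17a1 in function, had 33.4, 48.6, 49.3, 40.03 and 41.002 against 16.5, 19.5 and 35.5 TPM (0.89 ± 0.23, adjusted p = 0.22), and the basolateral organic cation transporter Slc22a2 21.3 against 12.4 TPM (0.77). Brush border peptidases lay 0.32 above all genes, and in single samples at 0.13 to 0.54 with dapagliflozin and −0.28 to 0.14 with vehicle, which overlap. Of 17 genes 14 were higher, against 77.6% of all genes, and 11 had an unadjusted p under 0.05, against 9.68%. Ace, angiotensin-converting enzyme, had 5.64, 12.7, 18.2, 10.5 and 7.14 against 1.62, 4.12 and 8.24 TPM (1.201 ± 0.36, adjusted p = 0.249), with 2 treated samples inside the vehicle range, and Mep1a, a meprin subunit, had 48.3 against 32.3 TPM (0.65). The citrate carriers Slc13a2 of the brush border (0.77) and Slc13a3 of the basolateral membrane (0.73) were also higher at an unadjusted p under 0.05.

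Sodium and bicarbonate transport was closer to the background, at 0.13 above all genes, with 19 of 21 higher and 12 after scaling, at 0.076. Slc9a3, the sodium-proton exchanger NHE3, had 22.5, 24.7, 26.8, 22.2 and 24.4 against 13.7, 14.9 and 21.3 TPM, separate groups on deposited TPM that overlapped after scaling (0.55 ± 0.23, adjusted p = 0.424; 0.28 scaled). Car3, a carbonic anhydrase, was low, with 1.57, 4.61, 10.9, 2.95 and 2.69 TPM against 0, 0.315 and 0.858, and separate before and after scaling. Its difference of 1.83 ± 0.47 (adjusted p = 0.22; 1.72 scaled) was the highest of the list. Guca2b, uroguanylin, a peptide that promotes sodium excretion, had 27.8, 33.97, 37.9, 39.1 and 24.6 against 10.5, 18.8 and 26.4 TPM (0.80 ± 0.27, adjusted p = 0.305; 0.53 scaled), with a single treated sample inside the vehicle range.

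Drug and steroid metabolism held 36 tested genes, 33 of them higher, 15 at an unadjusted p under 0.05 and 5 with separate groups, against 0.981% of all genes. Its median was 0.31 above all genes, and it shares 8 members with the male-biased list. In single samples that median overlapped, at 0.12 to 0.47 with dapagliflozin and −0.20 to 0.35 with vehicle. Ces1f, another carboxylesterase, had 132, 184, 198, 163 and 209 TPM against 59.7, 83.9 and 135 (1.03 ± 0.26, adjusted p = 0.22). Only its lowest treated sample was below the highest vehicle sample, and the groups were separate after scaling. NRF2 targets and glutathione genes, which protect against oxidants, were higher in 24 of 26, 10 at an unadjusted p under 0.05, at 0.23 above all genes and 0.14 without the libraries below 9000 genes. Their median in single samples overlapped, at −0.0055 to 0.38 with dapagliflozin and −0.21 to 0.23 with vehicle. Sod1, the cytosolic superoxide dismutase, was even across treated samples at 90.6, 89.3, 87.3, 90.6 and 81.9 TPM and spread over 26.3, 57.4 and 86.3 with vehicle (0.71 ± 0.19, adjusted p = 0.22). Gclc, the rate-limiting enzyme of glutathione synthesis (0.79), and the glutathione transferases Gstm1 (0.96) and Gstp1 (0.92) had adjusted p between 0.249 and 0.255.

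The medians of fuel metabolism lists moved when the 2 vehicle libraries with fewer than 9000 genes were left out, and also with other single samples. Mitochondrial fatty acid oxidation lay 0.26 above all genes, with 18 of 21 higher and 9 at an unadjusted p under 0.05, and the tricarboxylic acid cycle with pyruvate entry 0.23 above, with 29 of 30 higher and 10 at an unadjusted p under 0.05. Scaling left 16 of 21 and 21 of 30 higher, against 49.6% of all genes. The cycle list had 4 separate members, where 0.981% of all genes were separate and higher, and none stayed separate after scaling. Without the libraries below 9000 genes the medians were 0.13 for fatty acid oxidation and 0.075 for the cycle. With 1 sample left out, the cycle was at 0.104 without vehicle sample 2 and 0.21 without vehicle sample 5. It was at 0.11 without dapagliflozin sample 1. Fatty acid oxidation was lowest, at 0.19, without dapagliflozin sample 5. Cpt1a, which admits fatty acids to mitochondria, had 27.2, 27.5, 28.7, 33.04 and 36.5 against 10.3, 22.3 and 27.8 TPM (0.63 ± 0.25, adjusted p = 0.384). Mpc1, a subunit of the mitochondrial pyruvate carrier, had 22.2, 22.9, 27.6, 23.7 and 20.3 against 8.798, 15.1 and 20.3 TPM, and Pdha1, of pyruvate dehydrogenase, 32.2, 33.99, 35.2, 36.2 and 39.7 against 16.9, 24.6 and 29.5. In both genes the groups were separate on deposited TPM, at 0.71 ± 0.22 and 0.59 ± 0.20 (adjusted p = 0.279 and 0.3). Of 48 nuclear-encoded respiratory chain genes 47 were higher, but only 3 at an unadjusted p under 0.05, and scaling left 33 higher at a median of 0.03. PPAR-alpha targets lay 0.13 above all genes. Without the libraries below 9000 genes these 2 lists turned to −0.016 and −0.0039 relative to all genes. Among the PPAR-alpha targets were the peroxisomal enzyme Ehhadh (21.8 against 12.2 TPM; 0.85) and the ketone enzyme Acat1 (28.3 against 17.3 TPM; 0.72). The fatty acid carriers Cd36, at 26.95, 66.7, 51.98, 54.96 and 34.97 against 12.1, 21.5 and 42.2 TPM (1.03 ± 0.30, adjusted p = 0.249), and Slc27a2 (0.60) stood above the median of the lipid uptake list, which was −0.076 relative to all genes and turned to 0.026 after scaling and 0.021 without the libraries below 9000 genes. Apob, which packages lipids into lipoproteins, had 4.29, 2.75, 2.43, 6.49 and 14.1 TPM against 4.21, 10.2 and 13.5 (−0.74 ± 0.38, adjusted p = 0.508), with treated sample 6 above every vehicle sample and samples 2 and 4 below them all.

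Gluconeogenesis and ammonia genes lay 0.19 and 0.25 above all genes. Higher were 18 of 20 and 13 of 16, against 77.6% of all genes, and 14 of 20 and 10 of 16 after scaling, against 49.6%. Scaling reduced these medians to 0.11 and 0.16, and leaving out the libraries below 9000 genes to 0.063 and 0.12. Pck1, the rate-limiting enzyme of gluconeogenesis, had 367, 435, 527, 648 and 371 TPM with dapagliflozin and 121, 273 and 409.9 with vehicle (0.83 ± 0.32, adjusted p = 0.383; 0.54 scaled). Its samples 1 and 6 lay inside the vehicle range. Pcx, pyruvate carboxylase, was even at 55.9, 59.5, 54.4, 59.3 and 59.5 TPM against 25.7, 47.003 and 54.1 (0.49 ± 0.24, adjusted p = 0.494). The glutamine transporter Slc38a3 had 1.76, 8.02, 6.85, 5.02 and 4.49 against 0.781, 2.25 and 8.19 TPM, with wide overlap (0.83 ± 0.34, adjusted p = 0.397).

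Chaperones and the unfolded protein response of the endoplasmic reticulum lay 0.28 above all genes, with 22 of 24 higher and 12 at an unadjusted p under 0.05, and 0.17 above without dapagliflozin sample 2. Single samples overlapped, with list medians of 0.11 to 0.53 with dapagliflozin and −0.18 to 0.30 with vehicle, less that of all genes. Xbp1, a transcription factor of that response, had 12.4, 18.7, 19.99, 16.1 and 18.9 against 4.23, 8.004 and 18.1 TPM (0.94 ± 0.27, adjusted p = 0.241), separate after scaling. Canx, the chaperone calnexin, had 155, 189, 193, 197 and 233 against 89.6, 128 and 151 TPM, separate on deposited TPM (0.67 ± 0.20, adjusted p = 0.249). Mitochondrial Hspd1 had 40.1, 53.1, 51.5, 49.4 and 50.6 against 23.7, 31.99 and 39.8 TPM and was separate on both scales (0.63 ± 0.18, adjusted p = 0.249).

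Of the 45 functional lists, the one lowest against all genes was that of immediate early genes, at −0.39, with 15 of 18 members lower where 22.4% of all genes were, and 18 of 18 lower after scaling. Only Cyr61, an adhesion protein induced by stretch and growth factors, had an unadjusted p under 0.05, at 3.33, 4.104, 4.06, 4.31 and 7.798 against 3.34, 10.7 and 15.7 TPM (−0.92 ± 0.35, adjusted p = 0.365). Fos had 0, 0.439, 0.256, 0.1604 and 1.28 against 0.114, 1.36 and 1.53 TPM (−0.60 ± 0.33, adjusted p = 0.549), a level at which single libraries weigh much. In treated samples the list's median less that of all genes was −0.45, −0.57, −0.39, −0.41 and −0.27, and in vehicle samples it ran from −0.31 to 0.33, so that 1 vehicle sample, the 8624-gene sample 5, overlapped. Stromal markers were lower in 11 of 13, at −0.41 relative to all genes, with summed levels of 4.77 to 30.8 TPM against 7.55 to 53.7. Without vehicle sample 1 their median was −0.24, and their part in the immediate early list was not tested. Podocyte and leukocyte markers lay at −0.35 and −0.26, with 5 of 7 and 4 of 7 lower, and the leukocyte median was −0.14 without vehicle sample 6. In these lists, as in the stromal one, the medians of treated and vehicle samples overlapped. Podocyte markers were near the floor, only 2 with a mean of at least 1 TPM. They summed to 2.84 to 11.3 TPM (median 7.81) with dapagliflozin and 4.17 to 17.5 (median 6.72) with vehicle. The cytosolic ribosomal protein genes were higher in 56 of 78, but their median was −0.11 relative to all genes, and scaling left 10 of 78 higher at −0.19. Among tubular injury genes 10 of 18 were higher, a smaller share than the 77.6% of all genes, and 5 of 18 after scaling. Their median was −0.16 relative to all genes, −0.10 after scaling and −0.21 without the libraries below 9000 genes. With 1 sample left out it ran from −0.24 (vehicle sample 2) to −0.077 (dapagliflozin sample 5). In treated samples it ran from −0.47 to −0.097, against −0.13 to 0.085 in vehicle samples. Havcr1, the injury marker KIM-1, stayed at or below 0.157 TPM with dapagliflozin and 0.788 with vehicle and was not tested, nor was Glp1r, at most 0.168 TPM here, and Ins2 was listed at 0. Ccnd1, cyclin D1, had 20.8, 7.298, 15.7, 27.7 and 17.2 against 18.9, 27.6 and 38.5 TPM (−0.72 ± 0.30, adjusted p = 0.401).

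**Figure D5:**
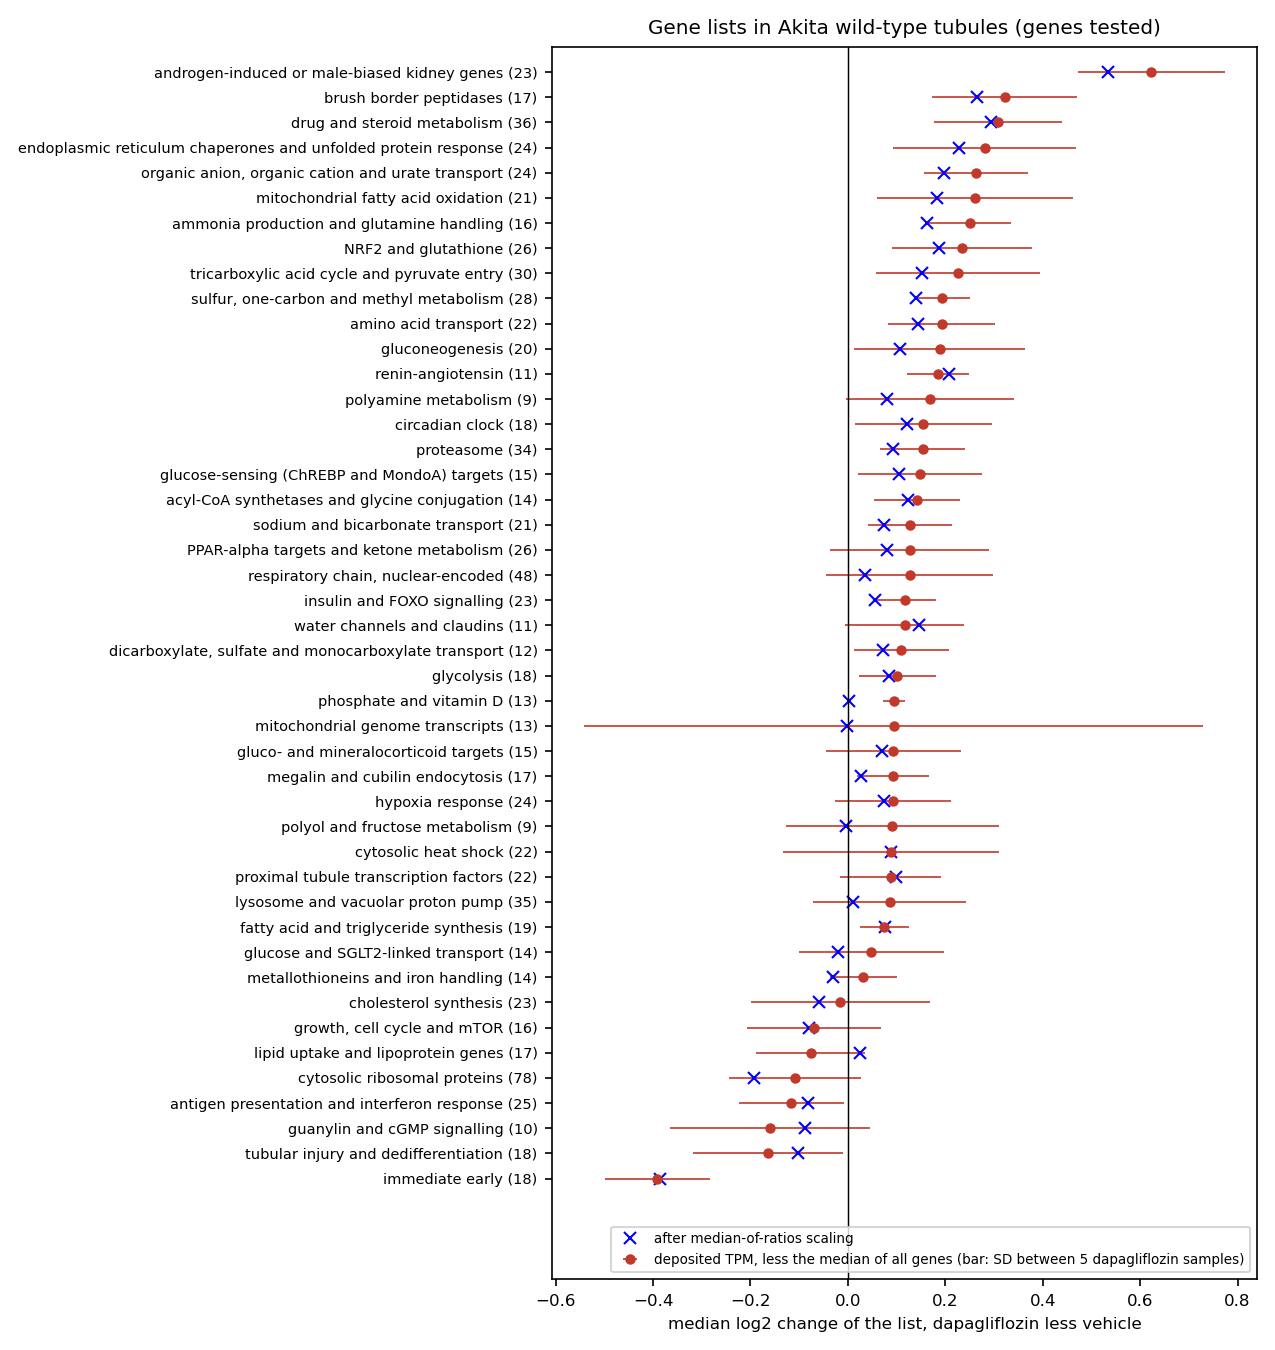
Median log2 difference (dapagliflozin less vehicle) of 45 gene lists, with the number of tested genes in brackets. Circles are from deposited TPM less the median of all genes, with the SD between the 5 treated samples, and crosses are after median-of-ratios scaling. Male-biased genes are highest at 0.62 and immediate early genes lowest at −0.39.

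Whether the response needed Sglt1 was asked by the difference between the dapagliflozin effects in wild-type and knockout Akita tubules. No gene was called (percent called 0; smallest adjusted p 0.9997). An unadjusted p under 0.05 was found for 246 of 12742 genes, a smaller share than the 0.05 that chance alone would give. In knockouts Cyp2e1 had 189 ± 56.8 TPM with dapagliflozin and 108 ± 41.6 with vehicle (n = 6 each), and Kap 1761 ± 568 and 1179 ± 421. The effect in wild type exceeded that in knockouts by 0.39 ± 0.37 for Cyp2e1, 0.38 ± 0.35 for Kap and 0.40 ± 0.41 for Cyp4a12a, differences near their SE. Of the lists, male-biased genes lay 0.34 above all genes in this contrast. They were also higher with dapagliflozin than with vehicle in Akita knockouts, at 0.33 above all genes. The genes of smallest p were Trp53i13 (1.203 ± 0.34), Pkia (1.02 ± 0.30) and Spc24 (1.32 ± 0.41) in one direction and Hps1 (−1.52 ± 0.44), Pfdn6 (−1.36 ± 0.39) and Arrdc1 (−1.21 ± 0.38) in the other.

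Against non-diabetic wild type, where 4 dapagliflozin and 5 vehicle samples were compared, again no gene was called (percent called 0; smallest adjusted p 0.261). At an unadjusted p under 0.05 stood 1423 of 12742 genes, 1383 with a positive and 40 with a negative difference of effects. After scaling these counts were 529 and 446. The median difference of effects was 0.32 over all genes and −0.00067 after scaling. Cyp4a12a had 39.03 ± 14.6 TPM with dapagliflozin and 59.2 ± 17.9 with vehicle in non-diabetic tubules, and the difference of effects was 1.86 ± 0.44 (adjusted p = 0.261). For Cyp2e1 it was 1.45 ± 0.40 (adjusted p = 0.272) and for Kap 1.14 ± 0.37 (adjusted p = 0.323). These differences are not scaled and are to be read against 0.32. In non-diabetic tubules 70.7% of all genes were lower with dapagliflozin, with a median of −0.13. Cyp4a12a, Cyp2e1 and Kap were also named from the main comparison, which is part of this contrast. The male-biased list lay 0.81 above all genes in this contrast. Between dapagliflozin and vehicle in non-diabetic wild type it was at −0.13 relative to all genes. Of smallest p were Spcs2, another signal peptidase subunit (1.49 ± 0.34), Mogat1, a monoacylglycerol acyltransferase (1.604 ± 0.37), and Pkia (1.41 ± 0.33), all at an adjusted p of 0.261. In the other direction stood Cln3 (−1.12 ± 0.36), Rhbg (−1.103 ± 0.41) and the small nuclear RNA Rnu5g (−6.14 ± 2.44).

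A second drug, semaglutide, which activates the GLP-1 receptor, had been given for the same time to another group of Akita wild-type mice (5 samples; 3 nmol/kg body weight a day), and the drugs were compared directly. No gene was called (percent called 0; smallest adjusted p 0.603). An unadjusted p under 0.05 was found for 332 of 12742 genes, again a smaller share than 0.05. Cyp2e1 had 141 ± 58.2 TPM with semaglutide, and Kap 1346 ± 463 TPM (SD, n = 5). The levels with dapagliflozin were higher by 0.47 ± 0.28 and 0.50 ± 0.26 on the log2 scale. The male-biased list was 0.26 higher with dapagliflozin relative to all genes. Against the same Akita vehicle samples it was also higher with semaglutide, at 0.38 above all genes. Arpp19, at 19.3 ± 4.21 TPM with semaglutide, differed by 0.12 ± 0.22 between the drugs. Genes of smallest p were the low-expressed Fam117a (0.99 ± 0.23), Pkia (0.96 ± 0.23) and Prmt2 (0.86 ± 0.21), higher with dapagliflozin (adjusted p = 0.603), and Txndc16 (−0.76 ± 0.22), Birc3 (−0.96 ± 0.32) and Eif2b2 (−1.19 ± 0.40), higher with semaglutide. Capture numbers in the sample titles ran from 88 to 99 with semaglutide and from 4 to 78 with dapagliflozin, so number and drug cannot be told apart in this comparison.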

How the data were processed

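RNA of laser-captured tubules was measured by total RNA sequencing from 0.5 ng of RNA, per the labels' protocols. The table deposited by the authors holds TPM. Salmon, MultiQC 1.8 and GRCm38 are named in the submitters' processing notes, while the annotation release is not given in the sources used here. Outliers are absent from the table according to its name, with no rule stated, and 6 of 54 labelled samples, 1 of them Akita wild type with dapagliflozin, were not analysed here. A column belongs to the sample whose title carries its capture number. No label says which animal a sample came from, so p-values measure only the spread between samples, which may be technical, and are too small where samples share an animal. TPM keeps no depth, so depth is unknown and no counting interval was given.

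Genes of at least 1 TPM in at least 5 columns were tested, 12742 of 55487 rows, 10402 of them protein-coding. Symbols were found for 12973 of 13233 rows with Ensembl names, and positions came from GENCODE for 51835 rows. On log2(TPM + 1), limma 3.58.1 (R 4.3.3, statmod 1.5.0) fitted 9 group means over all 48 libraries with trended, robust variances and 39 residual degrees of freedom. P-values are two-sided and adjusted by Benjamini-Hochberg within a comparison, with calls at 0.05. The procedure was tested on simulated data. Library measures were compared by exact permutation (scipy 1.17.1).

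The groups compared and the 45 pathway and 12 marker lists were chosen with earlier results of these data known. Named genes are, without predicted genes, clones and pseudogenes, the 10 of smallest p in each direction, the 3 of smallest p in each direction of other comparisons, up to 4 members of smallest p of each list and a few fixed genes, with some list members left out for brevity. Scalings, filters, pseudocount, covariates, sample weights and single samples were varied.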

Additional observations from a re-analysis of the deposited data

Results flagged for a closer look

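In 13 of 258 groups of values checked, 1 sample lay far from the others of its group, where chance alone flags about 1 in 20. With dapagliflozin, sample 1 was low in Abcd3 (21.12 TPM, others 30.7 to 34.6), Ces2c (18.61, others 25.8 to 27.4) and Hspd1 (40.09, others 49.4 to 53.1), and sample 4 was high in the transcription factor Klf6 (4.789, others 0.7102 to 1.42). The small nuclear RNA Rnu5g had 70.59 TPM in sample 6 and was listed at 0 in the others. With vehicle, sample 1 was high in Esrrg, an estrogen-related receptor (18.47, others 6.88 to 9.82), Fkbp5, a glucocorticoid-induced gene (21.25, others 3.96 to 5.81), Fam117a (0.7752, others 0.155 to 0.286) and Glp1r (0.1676, others up to 0.0530). Vehicle sample 5 was low in Acy1 (10.73, others 18.8 to 26.1), Slc27a2 (248.8, others 391.8 to 488) and Fos (0.1142, others 1.04 to 1.53), and sample 2 in Npl (1.925, others 3.83 to 5.20).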

How the results depend on the processing

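The count of called genes for dapagliflozin in Akita wild type was 0 with median-of-ratios, nuclear protein-coding and quantile scaling, but 1 without the filter on low values (2310007B03Rik, lower), 9 with sample weights (Abcd3, Arpp19, Cyp2e1, Cyp4a12a, Esrrg, Gipc2, Keg1, Lpl and Sec11a, all higher) and 2 with weights and median-of-ratios scaling together (Ces1f and Cyp2e1), an alternative chosen after seeing the data. Leaving out single samples gave 0 to 5: 5 without vehicle sample 1 (Abcd3, Arpp19, Cyp2e1, Keg1 and Lpl), 4 without dapagliflozin sample 1 (Abcd3, Arpp19, Lpl and Snora75) and 1 without dapagliflozin sample 5 (Pkia). Without the libraries below 9000 genes none was called, 467 genes had an unadjusted p under 0.05 and the median difference was 0.05. The difference from non-diabetic wild type gave 6 calls with sample weights and 0 to 1 without single samples, that with semaglutide 0 to 1, in both Pkia without dapagliflozin sample 5, and that with the knockout 0 to 0. Why these counts differ was not tested. The difference in genes detected per library ran from 373 to 817.2 without single samples, and that in nuclear protein-coding share of TPM from 1.31 to 2.43 percentage points, with exact permutation p of 0.0476 without dapagliflozin sample 1 (2.36) and 0.0317 without vehicle sample 1 (2.43).

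Slc5a1 turned to −0.026 with median-of-ratios, −0.0397 with nuclear protein-coding and −0.022 with quantile scaling, −0.00304 with detected genes as a covariate, −0.042 without libraries below 9000 genes and −0.051 with weights and scaling. Slc2a2 turned to −0.22, −0.23, −0.202, −0.12, −0.12 and −0.19 in the same order, and without single samples it ran from −0.023 (vehicle sample 2) to 0.16 (dapagliflozin sample 2), with −0.014 without vehicle sample 5 and −0.0067 without dapagliflozin sample 4. Of the 45 list medians relative to all genes, 5 changed sign and 15 more moved by over 1.5 times with median-of-ratios scaling, and 11 and 17 did so without the libraries below 9000 genes. The male-biased list stayed between 0.51 and 0.70 over the scalings, detected genes as a covariate, those libraries left out and single samples left out, and the immediate early list between −0.496 and −0.31. Without vehicle sample 2 alone, gluconeogenesis was at 0.089, the tricarboxylic acid cycle at 0.104 and the respiratory chain at 0.0015. No paired analysis was possible because sample titles carry unique capture numbers, and replicate numbers only name samples.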
